A study of Xenopus laevis with 5 samples.

Results

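Genes that receive or carry sex steroids, 5 in number, were followed in the testis of the African clawed frog, Xenopus laevis. They were esr1 (estrogen receptor alpha), pgr (the nuclear progesterone receptor), pgrmc1 and pgrmc2 (membrane-associated progesterone receptor components) and shbg (sex hormone-binding globulin). Their members on the array were taken by accession, as all gene probes whose RefSeq accession belongs to these symbols, with both homeologs where present. This gave 9 of 43653 gene probes and 5 of 8263 named genes. The probes were 1 for esr1.L, 1 for esr1.S, 1 for pgr.L, 3 for pgrmc1.L, 1 for pgrmc2.L, 1 for pgrmc2.S and 1 for shbg.S, where L and S name the long and short copies of each chromosome pair in this allotetraploid species.

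The testes came from males kept from tadpole stage NF 46 for 90 days without simazine (0 µg/L, 2 control samples) or with this chlorotriazine herbicide at 100 µg/L (3 simazine samples). No genotype, strain or other agent is given for either group. Each sample was hybridised to 1 one-colour Agilent array. The labels do not say that the testes came from separate animals, so the spread behind every p-value is that among these 5 samples and may be technical.

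Estrogen and progesterone receptors are transcription factors that bind steroid in the cell and then bind DNA at their target genes. In Xenopus oocytes the progesterone receptor takes part in the maturation that progesterone sets off. The pgrmc proteins are small heme-binding membrane proteins that were first linked to progesterone binding and are also known to associate with cytochrome P450 enzymes. In mammals shbg is a plasma protein from liver that carries androgens and estrogens, and rodent Sertoli cells make a form of it called androgen-binding protein.

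All 9 probes were well above background on all 5 arrays, as the scanner software judged it. The values given are log2 of the processed signal minus log2 of the array's 75th percentile, so 0 is the 75th percentile of that array, and they are not comparable between probes. Control 1 and simazine 2 shared 1 scan time (scan 1), and control 2, simazine 1 and simazine 3 shared another (scan 2). The scanner software marked spots as non-uniform on both scan 1 arrays far more often, at 44.0% and 42.6% of gene spots, than on the scan 2 arrays, at 5.78% to 10.0%. On scan 1 most marks fell on bright spots. Among spots brighter than the array's median but not in its top 25%, 78.7% were marked on control 1 and 76.4% on simazine 2, against 1.11% to 4.23% on the scan 2 arrays. Of the 9 member spots, 8 were marked on control 1, all 9 on simazine 2, and 1 (pgrmc2.L) on each of the other arrays. With marked spots left out, 7 of the 8 members that could be tested had 1 control and 2 simazine values, all from scan 2, and pgrmc2.L had no value. The values are therefore given below on all 5 arrays with marked spots kept. Differences are given with marked spots kept, and with them left out where stated. For the 7 members with values from scan 2 only, the difference with marked spots left out equals that within scan 2.

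**Figure D1:**
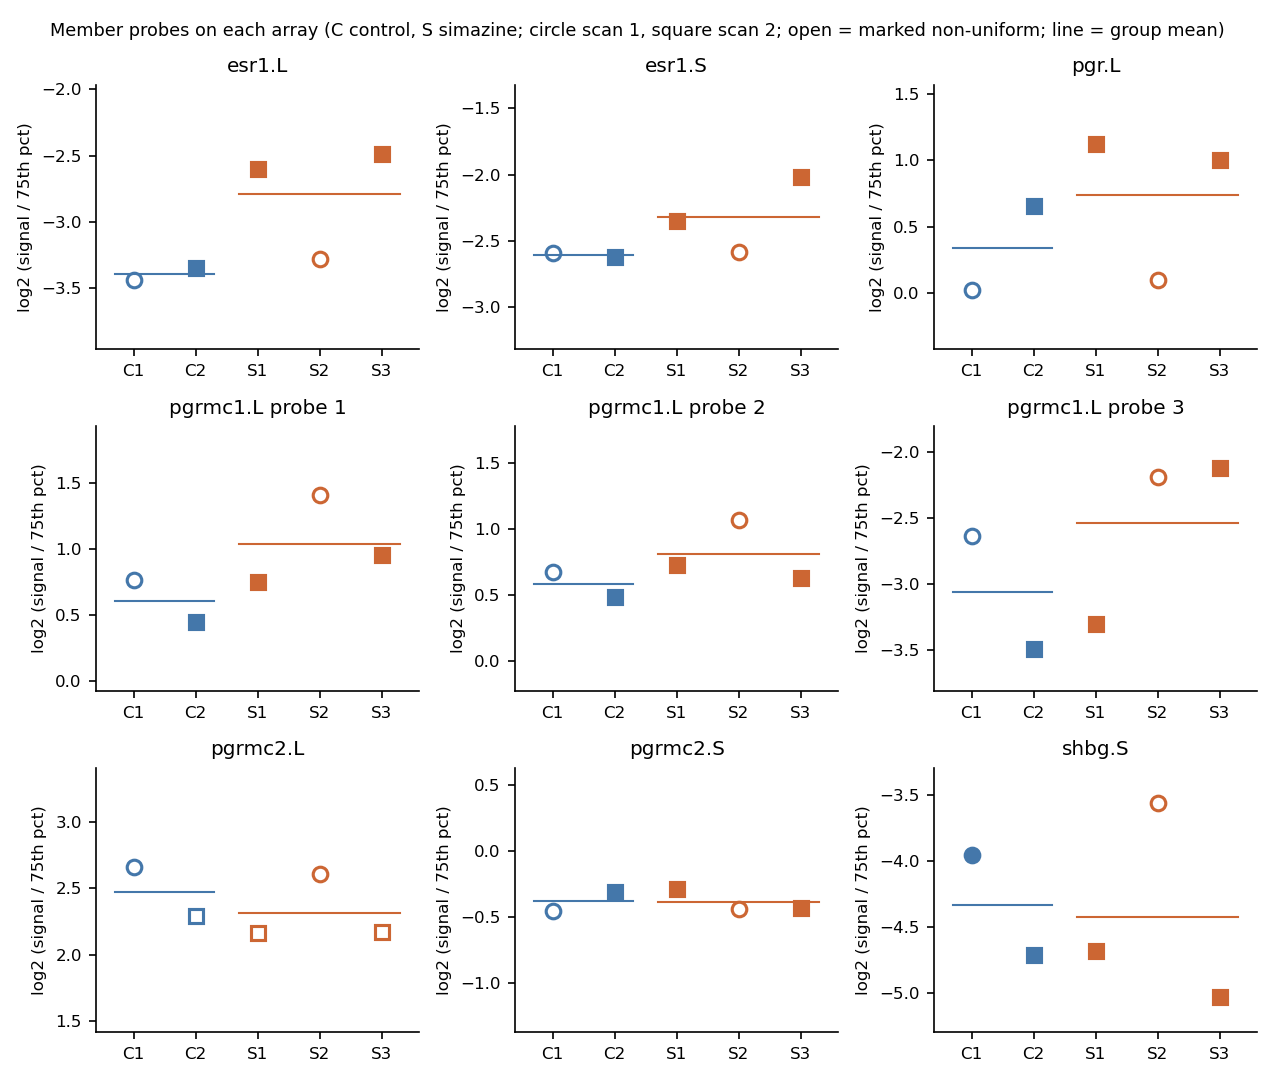
Log2 signal relative to the array's 75th percentile (y axis, each panel spanning 2 units) of the 9 member probes on each array (C1 and C2 control, S1 to S3 simazine). Circles are scan 1 and squares scan 2, open symbols are spots marked non-uniform, and lines are group means. In both esr1 panels all simazine points lie above the control points, while in the pgr.L, pgrmc2.L and shbg.S panels the circles lie apart from the squares.

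No member probe passed the test between simazine and control testes, which does not show that the members were unchanged. The test was a limma fit over every probe tested, with Benjamini-Hochberg adjusted p-values and a threshold of 0.05. With marked spots left out 0 of 8 members passed, where 0.00314% of all 31882 probes passed. None of the 8 had an unadjusted p under 0.05 in limma, against 8.5% of all probes. With marked spots kept 0 of 9 passed, where 1.02% of 36380 probes did, and with distorted areas of the arrays left out as well 0 of 8 passed, where 0.4% of 26995 did. In those fits too no member had an unadjusted p under 0.05, against 8.72% and 3.85% of all probes. In bulk tissue fewer cells of a type and less RNA per cell cannot be told apart.

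Differences above 0 were counted next. With marked spots kept, 6 of 9 members had a difference above 0 (simazine minus control), and 54.4% of all probes did. The median member difference was 0.29 against 0.044 over all probes, on the log2 scale. With marked spots left out the same figures were 6 of 8 members, 58.4% of all probes, and medians of 0.41 and 0.098. Several probes measure 1 gene, so these are not 9 separate genes.

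The estrogen receptor probe esr1.L had the largest difference of the members tested in each of the 3 value sets. It read -3.44 in control 1 and -3.35 in control 2, and the simazine arrays 1, 2 and 3 gave -2.60, -3.28 and -2.49. Both controls lay below all 3 simazine arrays, but simazine 2 was only 0.066 above the nearest control. The esr1.S probe read -2.59 and -2.62 in controls, then -2.35, -2.58 and -2.02 on simazine 1, 2 and 3. Again the groups did not overlap, with a gap of 0.0080 between simazine 2 and control 1. Of the 9 members these 2 had groups apart with simazine higher, as had 9.68% of all probes, and 0 had simazine lower, against 10.6%. With distorted areas left out it was 1 of 8 higher and 0 lower, where 7.51% and 6.85% of all probes were. With marked spots left out it was 6 of 8 higher and 0 lower, where 28.2% and 20.9% of all probes were, and 46.4% of those with 1 control and 2 simazine values were higher. These counts of groups apart are read from the values themselves, so scan as a block does not enter them. With scan as a block on the values without marked spots, 0 of 8 members had an unadjusted p under 0.05 (limma), where 12.2% of all probes did. For the 7 members with values from scan 2 only, the block left the difference as it was.

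For esr1.L the difference with marked spots kept was 0.60 (SE 0.375, 95% interval -0.34 to 1.54, n = 2 control and 3 simazine arrays), or 1.52-fold, with adjusted p = 0.980 (limma). With marked spots left out it was 0.80 (SE 0.330, n = 1 and 2, adjusted p = 0.783). For esr1.S the differences were 0.29 (SE 0.330, interval -0.54 to 1.12) and 0.44 (SE 0.370). Within scan 1, simazine 2 minus control 1 was 0.15 for esr1.L and 0.0080 for esr1.S. Within scan 2 the mean difference was 0.80 and 0.44. Most of the esr1 difference thus lay between the arrays of scan 2, where there was 1 control.

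The esr1.S spot was the only member in a distorted area of the array. The area around it deviated from the 5-array median by -0.41 (log2) for control 1, and by 0.21, -1.02 and 0.49 for simazine 1, 2 and 3. With this deviation subtracted, a step chosen after the data were seen, its difference was 0.19 (SE 0.419) and its groups overlapped. The esr1.L spot had local deviations of at most 0.038 in size, and its difference after subtraction was 0.57 (SE 0.337).

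**Figure D2:**
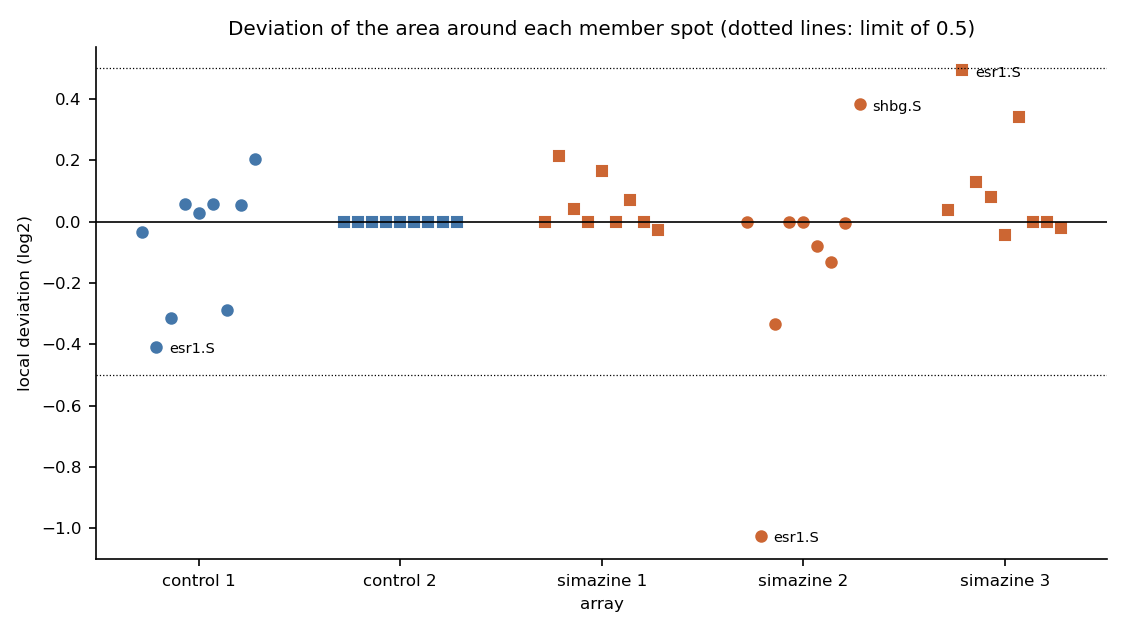
Local deviation (y axis, log2) of the area around each member spot on each array (x axis), taken as the median over 5 rows and 9 columns of each spot's deviation from the 5-array median. Each point is 1 member probe, circles are scan 1 and squares scan 2, and dotted lines mark the limit of 0.5. The point at -1.02 on simazine 2 is esr1.S, the only member past the limit.

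The second estrogen receptor, esr2.L, was not well above background on any of the 5 arrays, and no difference is given for it. The androgen receptor was not analysed here.

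The progesterone receptor pgr.L read 0.025 and 0.65 in the controls, against 1.12, 0.094 and 1.01 in simazine 1, 2 and 3. The values followed the scan: the 2 arrays of scan 1 had a mean of 0.059 and the 3 of scan 2 a mean of 0.93, and the groups overlapped. With marked spots kept the difference was 0.40 (SE 0.460, interval -0.75 to 1.56, n = 2 and 3, adjusted p = 1.00 by limma). Within scan 1 it was 0.069 and within scan 2 0.41. With distorted areas left out and scan as a block the difference was 0.26 (SE 0.178, interval -0.21 to 0.74, adjusted p = 0.672 by limma). The interval of that fit does not reach a 2-fold change in either direction, and that of the fit without the block does in the upward direction. With distorted areas left out, the difference was 0.087 without control 1 and 0.72 without control 2 or simazine 2, and 0.21 and 0.27 without simazine 1 and 3.

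The 3 pgrmc1.L probes were all higher on average in simazine, and none passed the test. Probe 1 read 0.76 and 0.45 in the controls, against 0.75, 1.41 and 0.96 in simazine 1, 2 and 3. Probe 2 read 0.68 and 0.49 in the controls, against 0.73, 1.06 and 0.63 in the simazine arrays. Control 2 was the lowest and simazine 2 the highest array for both, and the groups overlapped through control 1.

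Probe 3 of pgrmc1.L read -2.63 and -3.49 in the controls, against -3.30, -2.19 and -2.13 in the simazine arrays. It shared the lowest array, control 2, with the other 2 probes, but simazine 1 lay near it and simazine 3 was the highest. Its range over the 5 arrays was 1.36, against 0.96 for probe 1 and 0.58 for probe 2.

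With marked spots kept the difference was 0.43 (SE 0.356, interval -0.46 to 1.33) for probe 1, 0.23 (SE 0.320, interval -0.58 to 1.03) for probe 2 and 0.52 (SE 0.522, interval -0.79 to 1.83) for probe 3, each with n = 2 control and 3 simazine arrays. These correspond to 1.35-fold, 1.17-fold and 1.44-fold. Within scan 1 the differences were 0.65, 0.39 and 0.44, and within scan 2 they were 0.40, 0.19 and 0.78. All 3 probes were thus above 0 in both scans, among 6 of the 9 members that were. The share of all probes above 0 in both scans was not taken, so this count has no background to be read against. The median over all probes was 0.091 within scan 1 and 0.033 within scan 2. With distorted areas left out, leaving out single arrays gave 0.25 to 0.59 for probe 1 and 0.098 to 0.32 for probe 2, each lowest without simazine 2. For probe 3 it gave 0.096 without control 2, 0.95 without control 1, 0.90 without simazine 1, and 0.35 and 0.32 without simazine 2 and 3. With distorted areas left out and scan as a block, probe 1 had 0.51 (SE 0.177, interval 0.033 to 0.98), with an unadjusted p of 0.0410 and adjusted p = 0.429 (limma). That was 1 of 8 members under an unadjusted p of 0.05, where 11% of all probes were.

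The related gene pgrmc2 varied least. Its pgrmc2.S probe read -0.45 and -0.31 in the controls, against -0.29, -0.44 and -0.43 in simazine 1, 2 and 3. The whole range was 0.16, or 1.12-fold, and 0.381% of the 28593 probes well above background on all arrays had a smaller range. Repeated spots of 1 probe on the same array had a median SD of 0.26 to 0.40 by array, which is more than that whole range. Its difference was -0.0065 (SE 0.296, interval -0.75 to 0.74) with marked spots kept and -0.052 (SE 0.334, n = 1 and 2) with them left out. Under normexp background correction, also with marked spots left out, it turned to 0.42. Normexp raised the median of all probes from 0.098 to 0.26.

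The pgrmc2.L probe, marked on all 5 arrays, read 2.66 and 2.29 in the controls, against 2.16, 2.61 and 2.17 in the simazine arrays. Both scan 1 arrays were higher than the 3 of scan 2, with means of 2.63 and 2.21, and the groups overlapped. Its difference was -0.16 (SE 0.338, interval -1.01 to 0.69, adjusted p = 1.00 by limma), with -0.055 within scan 1 and -0.12 within scan 2. With distorted areas left out, the intervals of both pgrmc2 probes and of probe 2 of pgrmc1.L lay inside a 2-fold change in either direction, and those of the other 5 members tested did not. With marked spots left out no member had an interval that narrow.

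The carrier shbg.S read -3.95 and -4.71 in the controls, against -4.68, -3.57 and -5.02 in simazine 1, 2 and 3. The 2 arrays of scan 1 were the highest, with a mean of -3.76 against -4.81 on scan 2, and the groups overlapped. Its range of 1.46 was the widest of the members, and 65.3% of the 28593 probes well above background on all arrays had a smaller range. The difference was -0.094 (SE 0.553, interval -1.48 to 1.29) with marked spots kept and -0.52 (SE 0.378, n = 2 and 2, adjusted p = 0.954 by limma) with marked spots left out. Leaving out marked spots removed simazine 2, the highest simazine array, and kept control 1, the highest control. Within scan 1 the difference was 0.39 and within scan 2 -0.15, so its sign was not the same in both.

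**Figure D3:**
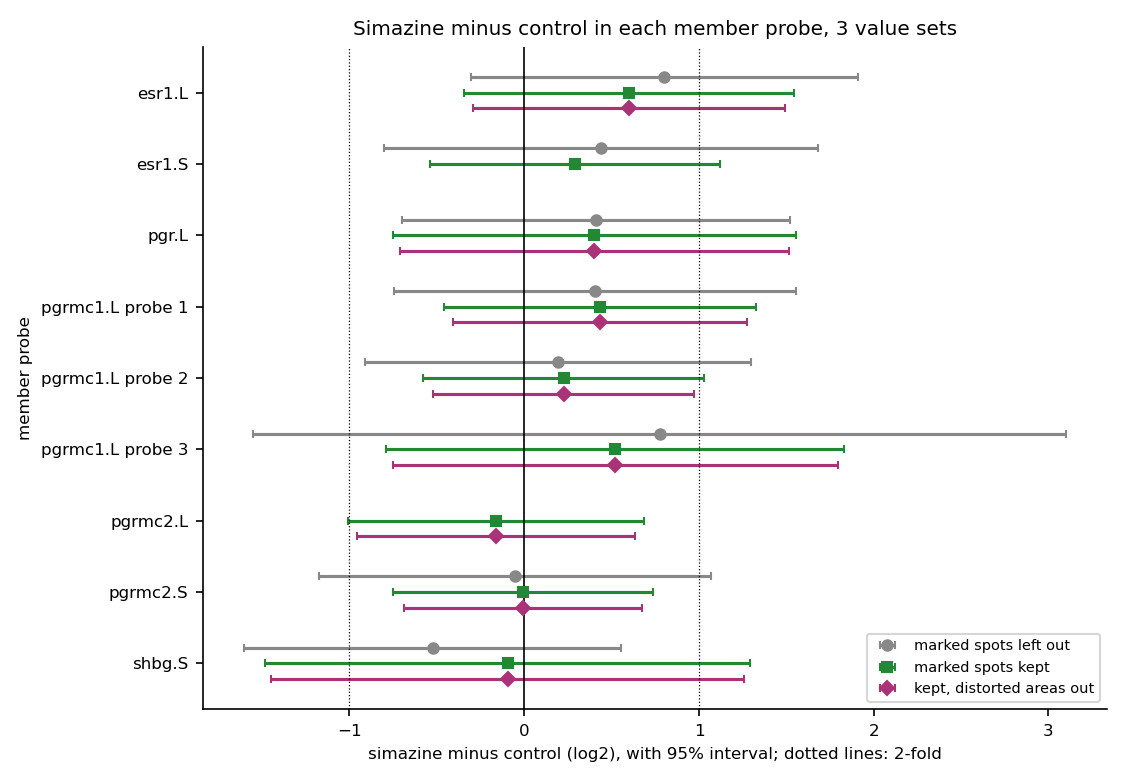
Simazine minus control (x axis, log2) with its 95% interval for each member probe (y axis) in 3 value sets, namely marked spots left out (circles), marked spots kept (squares) and marked spots kept with distorted areas left out (diamonds). Dotted lines mark a 2-fold change. Every interval crosses 0, and esr1.L lies furthest right among the squares and diamonds.

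Profiles most like those of the members over the 5 arrays were sought among 6144 named genes in undistorted areas, by the root-mean-square distance between values centred on their own mean. For pgr.L the nearest were fbp1, khnyn and unc119b, at distances of 0.057, 0.058 and 0.066 where the median gene was at 0.62. For probe 1 of pgrmc1.L they were cryz, tmem205 and mpst (0.042 to 0.056, median 0.42). For pgrmc2.L they were chtf8, gdpgp1 and ralb (0.013 to 0.034, median 0.34), and for shbg.S polh, eif3k and scaf8 (0.054 to 0.066, median 0.50). The brightest esr1 probe lay in a distorted area and was not compared. These likenesses rest on 5 arrays that share 2 scans. The nearest of 6144 genes must lie below the median gene, and no level for chance was set.

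Genes in lists of steroid signalling did not pass the test either. The lists contain the 5 member genes, which are part of the counts below. Over 7 lists of nuclear receptors, membrane receptors, receptor chaperones, coregulators, blood carriers, hormone target genes and steroid synthesis enzymes, 62 genes were tested with marked spots left out and 58 with distorted areas left out. None passed in either direction in limma in either set, where 0 of 7314 and 49 of 6892 genes (all lower) passed, and 3 genes in each had an unadjusted p under 0.05, where 7.41% and 4.22% of all genes did. These were paqr3, serpina6 and fshb with marked spots left out, and paqr3, prmt1 and akr1d1 with distorted areas left out. With distorted areas left out prmt1 had -0.74 and akr1d1 had 1.07. With marked spots left out, where other probes stood for these genes, they had 0.76 and -0.32, so the signs were opposite. Differences below are those with marked spots left out, with distorted areas left out where stated. Those of nr3c2, paqr6, hsp90ab1, stip1, ddx5, ncor1, alb, hif1a, nr5a1 and hsd17b4 rest on 1 control and 2 simazine values, all from scan 2. Those of crebbp and ptges3 rest on 2 and 2, and those of paqr3, serpina6, fshb and cyp19a1 on 2 and 3.

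Among nuclear receptors, nr3c2, the mineralocorticoid receptor, had -0.35 (SE 0.326). The median of the 4 tested genes of that list was 0.17, against 0.092 over all genes. They include the members esr1 (0.44, the esr1.S probe, in a distorted area) and pgr (0.41), and the remaining gene, nr3c1, had -0.064. With distorted areas left out, the esr1.L probe stood for esr1, with 0.60. The 6 membrane receptors and pgrmc relatives tested, with pgrmc1 and pgrmc2 among them, had a median of 0.16. Of these paqr3, a Golgi protein of the progestin and adipoQ receptor family, had 0.80 (SE 0.224, unadjusted p = 0.0179, adjusted p = 0.35 by limma). It was well above background on both controls and 1 simazine array. Another member of that family, the membrane progestin receptor paqr6, had 0.21 (SE 0.382).

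The chaperones that hold steroid receptors ready for ligand had a median of 0.27 over 8 genes with marked spots left out. With marked spots kept and distorted areas left out it was -0.24, also over 8 genes, but these were not all the same genes, and some were represented by other probes. Their smallest p-values belonged to the heat shock protein hsp90ab1 (-0.58, SE 0.326), the co-chaperone ptges3 (-0.46, SE 0.326) and the co-chaperone stip1 (0.65, SE 0.338, in a distorted area). The coregulators had a median of 0.14 over 13 genes. The histone acetyltransferase crebbp had -1.52 (SE 1.391, in a distorted area), the RNA helicase ddx5 -0.41 (SE 0.372) and the corepressor ncor1 0.30 (SE 0.325, in a distorted area).

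Of 8 blood carriers, shbg among them, with a median of 0.10, serpina6, the corticosteroid-binding globulin, had the smallest p. Its control values were -5.71 and -6.58 and its simazine values -7.87, -8.39 and -8.004, of which 1 was well above background, and its difference was -1.94 (SE 0.354, adjusted p = 0.166 by limma). Its spot lay in a distorted area. The plasma protein alb had 0.33 (SE 0.334).

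The hormone target list had a median of 0.045 over 11 genes. The gonadotropin subunit fshb had 0.52 (SE 0.193, unadjusted p = 0.0461, adjusted p = 0.564 by limma) and hif1a, the hypoxia-inducible factor, 0.39 (SE 0.327). Aromatase, cyp19a1, which makes estrogens from androgens, had control values of -2.996 and -2.36 and simazine values of -3.05, -3.49 and -3.34. All 3 simazine arrays lay below both controls, by -0.61 on average (SE 0.295, adjusted p = 0.767 by limma), but simazine 1 was close to control 1. Groups were apart with simazine lower in 20.9% of all probes with marked spots left out. The share was 10.6% with marked spots kept and 6.85% with distorted areas left out as well. The 13 synthesis enzymes and regulators tested had a median of -0.042, and besides cyp19a1 the smallest p-values were those of nr5a1, a regulator of steroid synthesis genes (-0.45, SE 0.333), and hsd17b4 (0.56, SE 0.424). List medians moved with the value set. With distorted areas left out they were 0.057 for synthesis (13 genes), 0.29 for targets (9 genes) and 0.011 for coregulators (12 genes). For nuclear receptors, membrane receptors and carriers they were 0.17, 0.14 and 0.060, against -0.0011 over all genes.

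Markers of testis cells were read well above background. All 8 Sertoli markers and all 9 germ cell markers in undistorted areas were so on 4 of the arrays, with 7 and 8 on simazine 3. The summed Sertoli level, as a multiple of the 75th percentile, was 51.5 to 52.2 in controls and 51.7 to 59.0 in simazine. For germ cells it was 191 to 315 and 215 to 352, for 2 Leydig cell markers 0.728 to 0.860 and 0.782 to 0.817, and for 5 ovarian follicle cell markers 16.8 to 28.0 and 15.4 to 28.1. Liver markers, listed because shbg is a liver protein in mammals, summed to 5.22 to 5.34 in controls and 5.45 to 5.98 in simazine over 17 genes, and the brightest undistorted probes of serpinc1 and vtgb1 in that list were not well above background on any array, although another vtgb1 probe was bright enough to be tested with marked spots left out. The liver sums did not overlap between the groups, and neither did those of 7 fat body markers, at 15.8 to 16.2 in controls and 13.3 to 15.5 in simazine. In both lists the nearest sums of the 2 groups lay close together, and no gene of either list passed the test (limma). Of the 10 lists summed, only these and the oocyte list below had groups that did not overlap. Of all single probes in undistorted areas, 7.51% had groups apart with simazine higher and 6.85% with simazine lower. No such share was taken for sums of several genes. The part of these cells in the members' values was not tested.

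Oocyte markers differed more in size between the groups. Their summed level over 18 genes was 48.5 to 68.4 in controls and 9.29 to 12.1 in simazine. Of the 18, 11 fell in the test (limma, marked spots kept and distorted areas left out), where 49 of 6892 genes did. Differences over the 18 ran from -6.01 to -0.22, with a median of -4.39. The oocyte list was written with earlier results of these data known, so its count is not independent of them. In the set without marked spots 0 of 19 passed, at a median of -3.72 and all below 0, and with marked spots kept 11 of 21 passed. Without single arrays in the set with distorted areas left out, 6 of 18 passed without simazine 2 and 0 without any one of the other 4 arrays, while 15 to 17 had an unadjusted p under 0.05 (limma) and the medians were -4.58 to -4.15. The members, of which pgr is also known from oocytes, had differences between -0.16 and 0.60 on the same arrays. The part of oocyte RNA in the members' values was not tested.

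**Figure D4:**
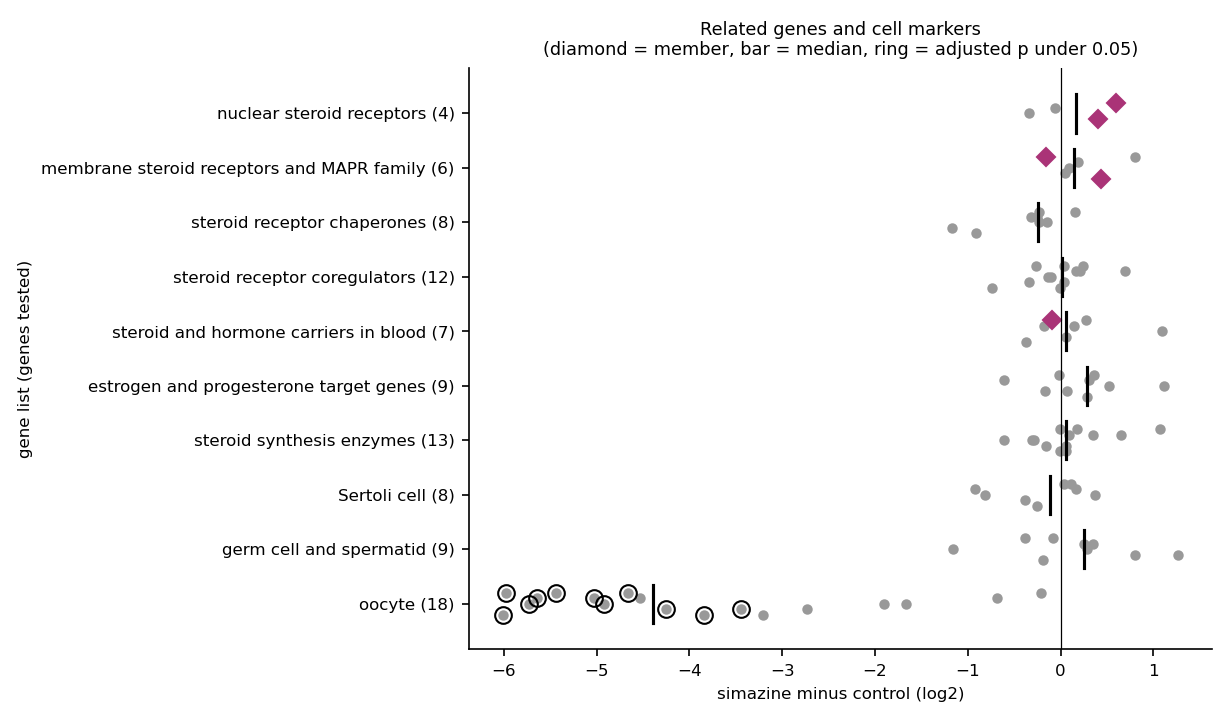
Simazine minus control (x axis, log2) for the genes of the 7 steroid signalling lists and 3 cell marker lists (y axis, with the number of genes tested), marked spots kept and distorted areas left out. Points are genes, diamonds are members, bars are list medians, and rings mark an adjusted p under 0.05. Rings appear only in the oocyte row, on 11 of 18 genes. The chaperone median, negative here, was positive with marked spots left out, and for the synthesis median it was the reverse. Both were over partly other genes and probes.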

How the data were processed

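RNA of 5 testis samples was measured on 1-colour Agilent arrays. The authors' deposited scanner tables hold linear intensity values, and per the file headers the software was Feature Extraction 10.7.3.1. In them the processed signal is background-subtracted, and a multiplicative trend over the array was removed on the 3 arrays of scan 2 only, per the file headers. The authors' deposited log2 table equals log2 of the processed signal minus about 1 constant per array, over 27228 probes, and its column medians were 1.06, 0.951, 0.958, 1.02 and 0.949. The rule behind its probes and constants is not stated in the labels.

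From these, log2 signal minus the array's 75th percentile (1564 to 6693) was computed. Control spots and, in the main fit, spots marked non-uniform or outlier were left out. The 50 probes spotted 4 times were averaged. Probes well above background on at least 2 arrays, with at least 3 values, were tested with limma 3.58.1 in R 4.3.3, simazine minus control. For 7 members this rests on 1 control and 2 simazine values, and limma then assumes the lone control to vary like the others. The fit was tested on simulated data with independent noise and no missing values, scan effect or distorted areas. That simulation therefore does not cover the members with 1 control value. Symbols came from RefSeq accessions (16032 named probes, table of assembly Xenopus_laevis_v10.1), and a gene was represented by its brightest tested probe. A second set kept marked spots. A further set also left out the 25.5% of spots where the median deviation over 5 rows and 9 columns exceeded 0.5 (log2) on any array. The normexp alternative used the median spot signal with an offset of 50, since no mean signal was in the tables.

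Genes were named by rule: all members, and of each steroid list every gene past the threshold or else the 3 with the smallest p in the main fit. The members, lists and value sets were chosen with earlier results of these data known. The number of arrays limits the precision.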

Additional observations from a re-analysis of the deposited data

How the results depend on the processing

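In 158 refits or within-scan values of the 9 member probes, no member passed an adjusted p of 0.05 in a refit. Of these 158, 142 kept the direction and 14 turned it. The other 2, within scan 1, kept it but moved by more than the spread between arrays (0.15 for esr1.L and 0.0080 for esr1.S). Only within-scan values were held against that spread. Many of the 158 repeat 1 value, such as 0.80 for esr1.L, because leaving out marked spots had already removed the scan 1 arrays. Their number is thus no measure of how firm a direction is. The lowest adjusted p of any member in any fit was 0.429. For pgrmc2.S the turned values were 0.42 under normexp, 0.0062 with the authors' log2 table, 0.021 with local deviation subtracted and 0.014 within scan 1, and, with distorted areas left out, 0.065, 0.019 and 0.017 without control 2, simazine 2 and simazine 3. For shbg.S they were 0.12 under normexp, 0.082 with distorted areas left out and scan as a block, 0.39 within scan 1, and, with distorted areas left out, 0.28, 0.035 and 0.21 without control 1, simazine 1 and simazine 3. For pgrmc2.L the value was 0.024 without control 1. The cause of these turns was not tested. Single replicates were left out in 2 value sets, with marked spots left out and with distorted areas left out, and the ranges pool both. Differences were 0.45 to 0.85 for esr1.L, 0.087 to 0.72 for pgr.L, and -0.35 to 0.024 for pgrmc2.L. They were 0.25 to 0.59, 0.098 to 0.32 and 0.096 to 0.95 for pgrmc1.L probes 1 to 3. For pgrmc2.S they were -0.078 to 0.065 and for shbg.S -0.90 to 0.28. The -0.90 was with marked spots and control 2 left out. The esr1.S probe, tested only with marked spots left out, had 0.44. Without simazine 2 and distorted areas the unadjusted p of esr1.L was 0.0489 (limma, adjusted p = 0.739). In that fit 1675 of 26995 probes had an unadjusted p under 0.05.

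Over all probes the count past the threshold was 1 with marked spots left out and 372 with them kept, 108 with distorted areas left out as well, 258 with that and scan as a block, and 188 with local deviation subtracted. It was 96 under quantile normalization, 4 when a probe had to be above background on every array, 2 with the authors' table, and 0 under normexp, without the filter on dim probes or with scan as a block (limma, with 1482, 3311 and 3770 probes at an unadjusted p under 0.05). Leaving out single replicates gave 0 with marked spots left out (1245 to 3297 at an unadjusted p under 0.05), and 0 to 53 with distorted areas left out, the 53 being without simazine 2. The oocyte list had 0 genes past the threshold with marked spots left out and 11 with distorted areas left out, with or without the block, 11 with marked spots kept, and 0 to 6 with distorted areas and single replicates left out (6 without simazine 2), and the blood list had 0 and then 1, the larval globin hba-l5, named after its value was seen. No paired analysis was possible because the labels give the groups no shared replicate numbers.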
